A study of Mus musculus with 6 samples.

Results

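Long intergenic noncoding RNAs (lincRNAs) are spliced transcripts of genes that lie between protein-coding genes and encode no known protein. Their contacts in mouse embryonic stem (ES) cells were read from 3 MARIO libraries, in which RNAs held by protein are joined through a linker as RNA1–Linker–RNA2 and sequenced as 1 read pair. A read pair was taken as a lincRNA contact when either end carried the deposited type lincRNA, leaving out Malat1, Neat1, Meg3, Rian, Mirg, Gas5, Gm16869 and every name starting with Snhg. Read pairs with equal coordinates and strands at both ends were counted as 1 distinct read pair. By this rule 55105 of 5207397 distinct read pairs were members, and they carried 1694 lincRNA names.

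All 3 libraries were made from undifferentiated E14 ES cells of strain 129/Ola, grown without feeders in medium with LIF, so the E14 line and these culture conditions limit what the cells stand for. ES-1 and ES-2 were independent assays after cross-linking with UV light of 254 nm and a first fragmentation by RNase I, and their ribosomal RNA was depleted differently, with a duplex-specific nuclease (ES-1) or the GeneRead kit (ES-2). ES indirect was cross-linked with formaldehyde and EGS, which also hold proteins to each other, was fragmented by sonication and was depleted by the nuclease. The labels give a first fragment size of about 1000 nt for all 3, while the study's methods give a wider range for ES-1 that reaches larger sizes. ES indirect is a single library, so its differences from the other two cannot be told apart from differences in fragmentation or sequencing, and no test was run between groups.

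LincRNAs are known mainly from the nucleus, where many stay close to the gene that makes them and bind chromatin or splicing proteins. A contact in such a library is a ligation between fragments held in 1 complex, and it does not need base pairing. Most lincRNAs have long introns and short exons. Small nucleolar RNAs (snoRNAs), which guide the modification of ribosomal RNA, and the small nuclear RNAs of the spliceosome are the other noncoding RNAs met here.

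The libraries held 2310134 distinct read pairs in ES-1, 1241787 in ES-2 and 1655476 in ES indirect. Of these, 15369 in ES-1 had a lincRNA end, which is 0.665% (95% Wilson interval 0.655 to 0.676, counting error only). In ES-2 the number was 17926 or 1.44% (1.42 to 1.46), and its interval lay above that of ES-1, although ES-2 was the shallower library. ES indirect held 21810 or 1.32% (1.30 to 1.33). The mean of ES-1 and ES-2, 1.05%, was 0.550% when lincRNA ends with a stretch of ribosomal RNA or linker were left out, 0.509% with GENCODE vM1 names, 0.459% with fragments of at least 20 bases that matched the genome, and 2.16% with ribosomal read pairs left out of the total. The labelled cell type was checked against marker genes. All 12 listed ES cell markers, among them Pou5f1, Sox2 and Nanog, had exonic ends in each of the 3 libraries, with 960 ends in ES-1, 402 in ES-2 and 1529 in ES indirect. The 8 fibroblast markers summed to 17 to 39 ends and the 5 neuronal markers to 0 to 20.

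The sequences below show how the lincRNA fragments of the leading called pairs look, and none of them has a ribosomal partner, since pairs were called without those. They are the fragments of the read pair with most lines for 6 pairs of RNAs, those with most read pairs among the pairs that were called over both UV libraries merged and seen in each of them. All of these read pairs are from ES-1, also where ES-2 held more read pairs of the pair. Each is printed 5′ to 3′ on the strand of the RNA. In a lincRNA fragment, capitals mark a stretch found in the ribosomal fragments of the same libraries (runs of 15 bases) or, where there is none, a stretch shared with the gene of the partner (runs of 12 bases on either strand). Coordinates are NCBIM37 (mm9).
9330185C12Rik, chr1:115800561-115800588, minus strand: GAGAGGTGTAGAATAAGTGGGAGGCCCt
its partner Snora3, chr7:116663634-116663713, plus strand: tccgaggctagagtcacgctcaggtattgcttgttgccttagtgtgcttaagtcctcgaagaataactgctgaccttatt
Gm12374, chr4:37260457-37260472, minus strand: tAAGCAGGATTTAACT
its partner SNORA63, chr16:23111390-23111505, plus strand: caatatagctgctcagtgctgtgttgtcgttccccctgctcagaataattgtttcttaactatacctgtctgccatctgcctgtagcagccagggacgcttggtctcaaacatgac
A430010J10Rik, from a pair with SNORA74, chr6:67096815-67096839, minus strand: CAGCAGGACGGTGGCCATGGAAGTC
Gm17494, chr3:121977223-121977239, plus strand: cccccgggccgcggttt
its partner tRNA-Glu-GAG, chr1:34491655-34491723, minus strand: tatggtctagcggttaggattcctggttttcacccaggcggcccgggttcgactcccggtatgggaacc
A430010J10Rik, from a pair with SNORA1, chr6:67096823-67096839, minus strand: CAGCAGGACGGTGGCCC
its partner SNORA1, chr9:15119631-15119765, plus strand: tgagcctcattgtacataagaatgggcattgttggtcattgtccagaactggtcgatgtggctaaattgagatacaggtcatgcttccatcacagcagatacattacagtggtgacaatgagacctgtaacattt
2900079G21Rik, chr9:112163848-112163867, minus strand: tCAGGTTAGTGACATATgtc
its partner Snora3, chr7:116663641-116663749, plus strand: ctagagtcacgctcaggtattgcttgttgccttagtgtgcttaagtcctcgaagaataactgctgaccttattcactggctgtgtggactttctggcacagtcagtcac

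The partner fragments printed were 69 to 135 bases long and lay in small RNA genes, while the lincRNA fragments were 16 to 28 bases. The SNORA74 fragment is not printed and is not part of this range. All the lincRNA fragments shown lay in introns by the deposited regions, and all but that of 9330185C12Rik were on the strand opposite the lincRNA gene. The ribosomal stretch covered 27 of the 28 bases of the 9330185C12Rik fragment and all 25 of the first A430010J10Rik fragment. In the Gm12374 fragment, 15 of 16 bases were shared with the gene of its partner, and in 2900079G21Rik 16 of 20 bases.

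LincRNA ends in ES-1 and ES-2 were mostly short and intronic. The median length of a lincRNA end was 24 bases over 15966 ends in ES-1 and 21 bases over 18177 ends in ES-2, against 90 bases over 28497 ends in ES indirect. By the deposited regions, 84.7% of the ends were intronic in ES-1, 79.5% in ES-2 and 82.0% in ES indirect. On the strand of the gene lay 61.8%, 51.2% and 60.3% of ends with a gene in GENCODE vM1, where 50% is the value for ends without strand. These pooled values mix lincRNAs whose ends lay almost all on 1 strand, such as 9330185C12Rik with 99.9% and 99.7% sense ends in ES-1 and ES-2 and Gm13589 with 0.873% and 0.219%. The strands of RNA1 and RNA2 are not stated in the sources used here. They were read so that snoRNA ends lie on the strand of snoRNA genes (97.6% to 98.9% over both sides and all 3 libraries), and every sense share rests on that reading.

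A ribosomal run was present in 35.2% of lincRNA ends in ES-1, 35.5% in ES-2 and 7.86% in ES indirect. Intronic ends of protein-coding genes, read the same way, held one in 38.2%, 38.3% and 4.97%, so the ES-1 and ES-2 values were near those of introns at large. Exonic ends of protein-coding genes held one in 14.9%, 32.7% and 4.71%. Runs of 10 bases of the linker were in 4.90% of lincRNA ends in ES-1, 14.8% in ES-2 and 9.11% in ES indirect. The fragment matched the genome at its stated place, with at most 15% mismatches, for 64.0% of the ends in ES-1, 46.9% in ES-2 and 85.6% in ES indirect. The ends of 50 bases or more stood apart: 100% of them matched in each library, and at most 4.91% held a ribosomal or linker run. They made up 18.3% of the ends in ES-1, 4.93% in ES-2 and 69.7% in ES indirect.

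The same names recurred between the ES assays. ES-1 held 1174 lincRNAs and ES-2 held 1121, and 874 were in both, which is 74.4% of the ES-1 names and 78.0% of the ES-2 names. Of these 874, 810 were also in ES indirect (92.7%), which held 1492 names. The counts per lincRNA had a Spearman rho of 0.68 between ES-1 and ES-2 over the 874 shared lincRNAs, 0.55 between ES-1 and ES indirect over 1039, and 0.49 between ES-2 and ES indirect over 990. These are descriptions across genes, which share gene length and the runs described above, and carry no p. Without ends that held a run, 691 names were shared, with fragments of at least 20 bases that matched the genome at both ends, 300, and with at least 3 distinct read pairs in each library, 428.

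A small number of lincRNAs held a large part of the read pairs. The 10 leading names took 41.7% of the counts in ES-1, 35.5% in ES-2 and 25.5% in ES indirect, while 365, 354 and 348 names were seen with a single read pair. The median lincRNA had 3, 3 and 4 read pairs.

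**Figure D1:**
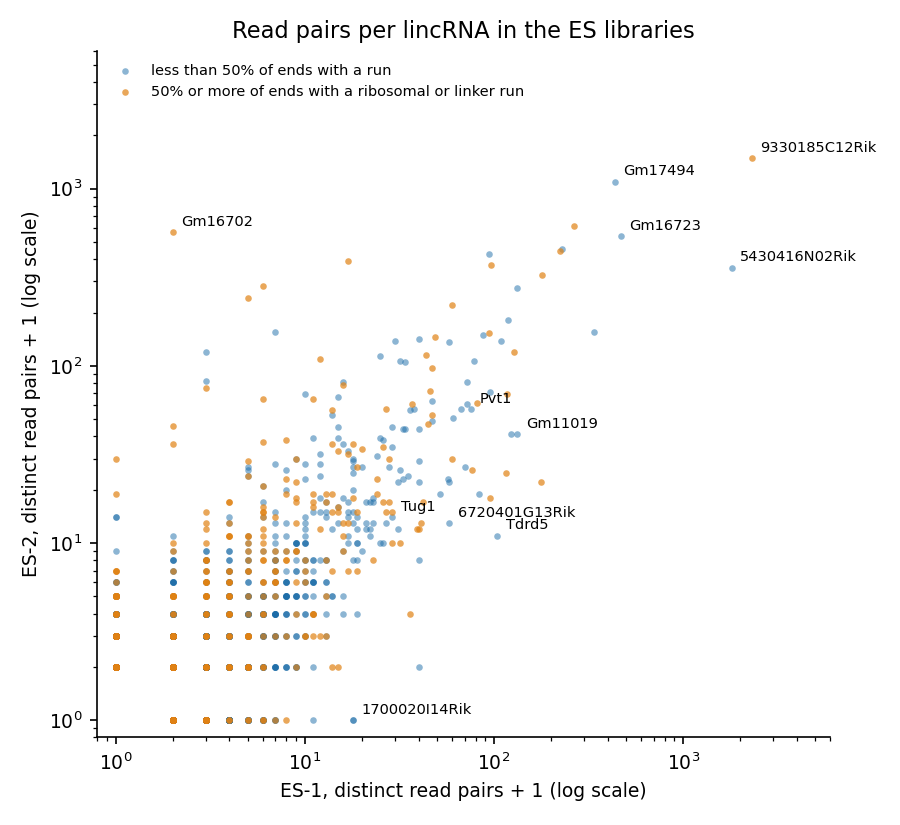
Distinct read pairs per lincRNA in ES-1 (x axis) and ES-2 (y axis), each plus 1 and on log scales, 1 point per lincRNA. Orange points are lincRNAs with at least 50% of their ES-1 and ES-2 ends holding a ribosomal or linker run. 9330185C12Rik lies at the top right with 2308 and 1483 read pairs, 5430416N02Rik lies below the diagonal with 1810 and 357, and Gm16702 lies far above it with 1 and 567.

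9330185C12Rik on chromosome 1 led both ES libraries, with 2308 distinct read pairs in ES-1, 1483 in ES-2 and 1046 in ES indirect. Runs were found in 99.1%, 99.5% and 87.1% of its ends, and the fragment printed above is an example. 5430416N02Rik had 1810 read pairs in ES-1, 357 in ES-2 and 70 in ES indirect. Gm17494 went the other way with 433, 1096 and 44, and fewer than 7% of its ends in any library held a run. Gm16723 had 469, 541 and 5, A430010J10Rik 263, 613 and 20, and Gm13589 229, 457 and 26. Gm16702 had 1 read pair in ES-1 and 567 in ES-2, with runs in 100% of its ends in both. High counts in ES-1 and ES-2 thus came with and without ribosomal runs, and 5 of these 7 lincRNAs had more read pairs in the shallower ES-2.

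The other leading lincRNAs fell into the same kinds. Gm6999 had 222 read pairs in ES-1, 444 in ES-2 and 550 in ES indirect, with runs in 97.7%, 98.2% and 95.7% of its ends, so it was high in all 3 libraries. Fam169b (96, 369 and 32) and Gm12649 (16, 391 and 65) were highest in ES-2, where 98.1% and 96.9% of their ends held a run. Gm13847 (179, 324 and 24) had runs in 91.2% of its ES-1 ends and 94.5% of its ES-2 ends. Ends of Gm16742 (93, 427 and 63), 1110019D14Rik (132, 275 and 55) and Gm17480 (118, 180 and 128) held a run in at most 13.7% in any library. 6030443J06Rik had 336, 155 and 446, and its busiest 100 bp held 13%, 13.3% and 9.9% of its ends. Gm17317 had 94, 70 and 564, the third highest count in ES indirect, with 1.12% of its ends there in the busiest window and 87.2% on the strand of the gene.

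In ES-1 and ES-2 the ends of many lincRNAs were concentrated, with exceptions such as 6030443J06Rik. Among lincRNAs with 20 or more ends, the median share of ends in the busiest 100 bp was 50% in ES-1 (109 lincRNAs), 78.2% in ES-2 (130) and 10% in ES indirect (257). At least 50% of the ends lay in 1 such window for 55 of 109, 98 of 130 and 30 of 257 lincRNAs. For Gm16723 the busiest window held 93.6% and 97.8% of the ends in ES-1 and ES-2, for Gm17494 95.2% and 99.2%, and for Gm13589 98.7% and 99.8%. The median end of these 3 was 18 to 23 bases long in both libraries. Gm17494 and Gm13589 ends lay on the strand of the gene in under 1%.

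**Figure D2:**
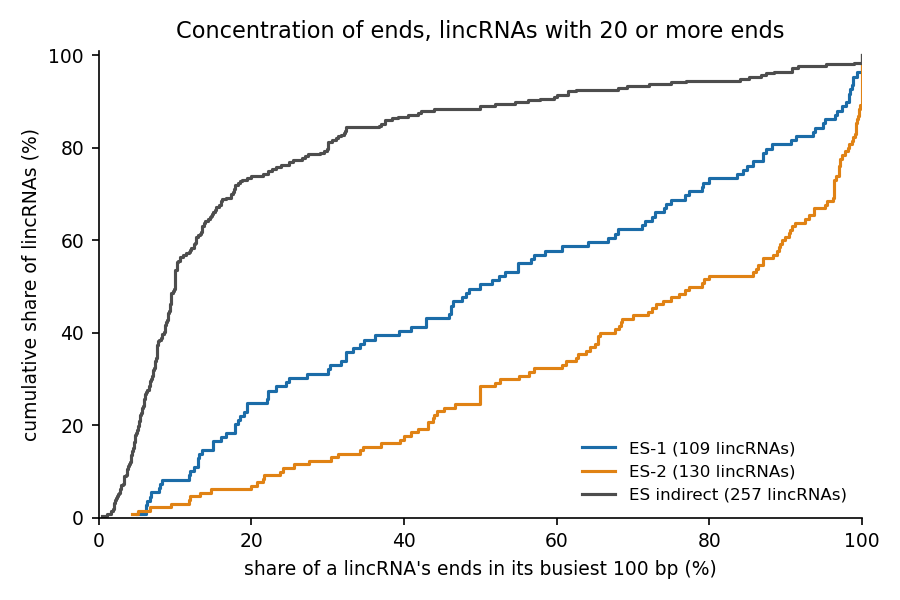
Share of the ends of a lincRNA that lie in its busiest 100 bp (x axis, percent) against the cumulative share of lincRNAs (y axis, percent), for lincRNAs with 20 or more ends, 1 line per library. The ES indirect line rises at the left, with a median of 10%, the ES-1 line crosses 50% of lincRNAs near 50%, and the ES-2 line rises last, with a median of 78.2%.

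5430416N02Rik had stranded ends without runs, with a median length of 41 bases in ES-1 and 39 in ES-2, in 1 sharply bounded stretch. Gm17480 had ends of like length in ES-1 and ES-2 (39 and 36 bases), mostly sense (86.7% and 92.8%) and in 1 window of 100 bp (75% and 90.6%). In ES indirect 10.8% of its ends were sense, and its busiest 100 bp held 5.41%. Of the ends of 5430416N02Rik, 1821 of 1858 in ES-1 (98.0%) and 359 of 365 in ES-2 (98.4%) lay in 1 stretch of 73 bases, against 15 of 96 in ES indirect (15.6%). The stretch of 5430416N02Rik lies in an intron, chr5:100855824-100858115, and ends 78 bases before the next exon downstream. No gene of GENCODE vM1 other than the lincRNA is annotated there. It is printed from NCBIM37, with the part that RNA2 ends most often covered in capitals, and was chosen for printing after its values were seen.
5430416N02Rik, chr5:100855902-100855974, minus strand: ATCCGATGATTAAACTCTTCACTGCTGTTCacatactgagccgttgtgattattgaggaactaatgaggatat

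In ES-1, 1218 of the 1382 RNA1 ends in the stretch (88.1%) stopped within 1 base of its 3′ edge, and 405 of the 439 RNA2 ends (92.3%) started within 1 base of its 5′ edge. In ES-2 the numbers were 212 of 234 (90.6%) and 105 of 125 (84.0%). The 3′ edge was set as the most frequent one over all ends of both assays pooled, and the 5′ edge as that of their RNA2 ends. These shares are therefore no independent test of the edges, and edges were not sought in each assay by itself. Of the RNA1 ends, 603 in ES-1 and 74 in ES-2 covered just the 3′ part of 42 bases, and of the RNA2 ends 321 and 66 covered just the 5′ part of 30 bases. Both ends of 1 read pair lay inside the stretch 44 times in ES-1 and 8 times in ES-2, and in every one of these RNA1 lay downstream of RNA2, so that the order in the read pair was the reverse of that in the gene. In ES indirect no read pair had both ends in the stretch, and RNA1 lay upstream in 21 of the 26 read pairs within this lincRNA. The partner was ribosomal RNA in 1285 of 1810 cases in ES-1 and 237 of 357 in ES-2.

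Partners of lincRNA ends were mostly ribosomal RNA in the UV libraries. The share was 59.9% in ES-1 (9210 read pairs, 59.1 to 60.7) and 63.5% in ES-2 (11386, 62.8 to 64.2), against 26.5% in ES indirect (5778, 25.9 to 27.1). Among all ends of the libraries, ribosomal RNA held 57.0%, 54.1% and 44.8%. Intronic ends of protein-coding genes had a ribosomal partner in 60.7%, 65.4% and 27.0%, which is close to the lincRNA values in each library. Counting only read pairs whose lincRNA end held no ribosomal or linker run, the mean of ES-1 and ES-2 was 59.1%, against 61.7% for all.

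**Figure D3:**
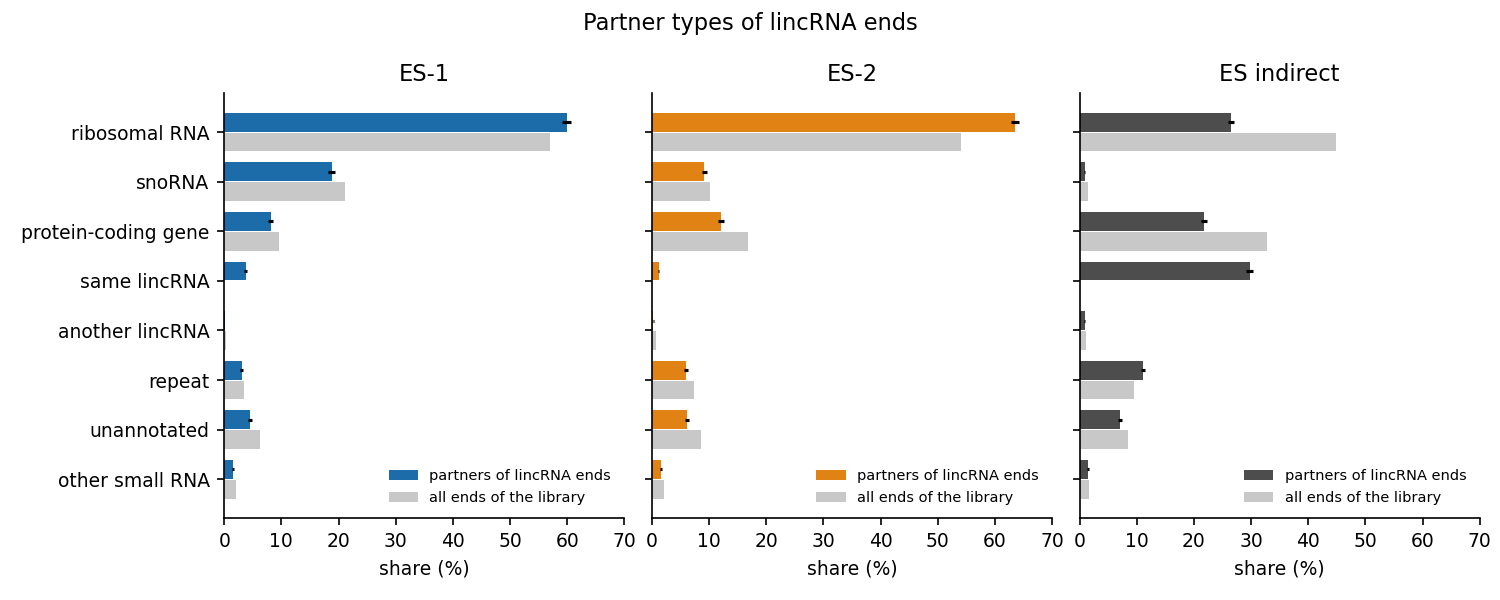
Share of each partner type among the other ends of lincRNA read pairs (coloured bars, with 95% Wilson intervals) and share of that type among all ends of the library (grey), in percent, 1 panel per library. Grey is left out for the same lincRNA, which has no such background, and the other grey shares include read pairs within 1 gene. Ribosomal RNA leads in ES-1 and ES-2 with 59.9% and 63.5%, and the same lincRNA leads in ES indirect with 29.8%.

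SnoRNAs were the second partner type in ES-1, with 2885 read pairs (18.8%), and held 1635 in ES-2 (9.12%) and 190 in ES indirect (0.871%). Among all ends the snoRNA shares were 21.2%, 10.1% and 1.39%, so the order of the libraries was that of their whole snoRNA content. Without ribosomal partners the mean of ES-1 and ES-2 was 35.9%, against 13.9%, and ES indirect came to 0.487% with the fragment filter (both fragments of 20 bases or more and matching the genome) and 0.553% without runs. The leading families were H/ACA snoRNAs, which guide pseudouridylation. SNORA81 was met 252 times in ES-1 and 161 times in ES-2, SNORA73 226 and 112, and SNORA63 142 and 64. In ES indirect the small RNA partners were led by U1, the spliceosomal RNA that recognises the 5′ splice site, with 143 of 507, followed by U3 with 59 and U2 with 39. U1 was in 7341 read pairs between RNAs of any type there. The counts of these families were not set against their shares of the whole library, so they show no preference of lincRNAs.

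Protein-coding genes were the partner in 1252 read pairs of ES-1 (8.15%), 2166 of ES-2 (12.1%) and 4755 of ES indirect (21.8%). Among all ends they held 9.54%, 16.8% and 32.8%, but these shares include read pairs within 1 gene, 290278 in ES indirect. Read pairs within a lincRNA are a class of their own here, so these shares are not alike. Counting only lincRNA read pairs between RNAs, the share in ES indirect was 30.3%. The mean of ES-1 and ES-2, 10.1%, was 6.33% with the fragment filter, 6.52% with vM1 names and 26.7% without ribosomal partners. Repeats held 3.03%, 6.01% and 11.1%. A second lincRNA was rarely met, in 21, 44 and 189 read pairs. In ES indirect, many read pairs had a resemblance: a fragment also aligned to the locus of the other end, on either strand, with at most 10% edits. Loci were whole genes with introns where annotated, so the fragments were not compared with each other. A resemblance was found in 31.4% of the read pairs with a protein-coding gene, 61.6% of those with a repeat and 61.4% of those with a second lincRNA. In ES-1 the values were 7.99%, 23.7% and 42.9%, and in ES-2 1.25%, 4.64% and 4.55%.

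Most mRNA partners in ES indirect were intronic, while exons and introns were near even in the UV libraries. In an exon or UTR lay 49.9% of the 1230 mRNA partners with a region in ES-1 (47.1 to 52.7), 44.4% of 2153 in ES-2 (42.3 to 46.5) and 24.2% of 4538 in ES indirect (23.0 to 25.5). The protein-coding ends of all read pairs between RNAs gave 46.5%, 42.0% and 23.2%. These values lay just below the interval of the lincRNA partners in ES-1 and ES-2 and inside it in ES indirect. Of the exonic partners, 345, 471 and 575 carried the region exon, 178, 193 and 380 the 3′ UTR and 91, 291 and 143 the 5′ UTR.

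Exonic partners lay mostly on the strand of their gene, less so in ES-2, and intronic partners in the UV libraries were near even between the strands. Sense ends made up 535 of 614 exonic partners in ES-1 (87.1%), 667 of 955 in ES-2 (69.8%) and 994 of 1098 in ES indirect (90.5%). Among intronic partners they were 310 of 616 (50.3%), 614 of 1198 (51.3%) and 2464 of 3440 (71.6%). The background of all protein-coding ends was 85.0%, 69.7% and 84.9% for exonic and 48.4%, 50.03% and 70.1% for intronic ends. Counting sense partners only, the exonic share had a mean of 57.7% over ES-1 and ES-2, against 47.1% for all partners, and was 28.7% in ES indirect.

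**Figure D4:**
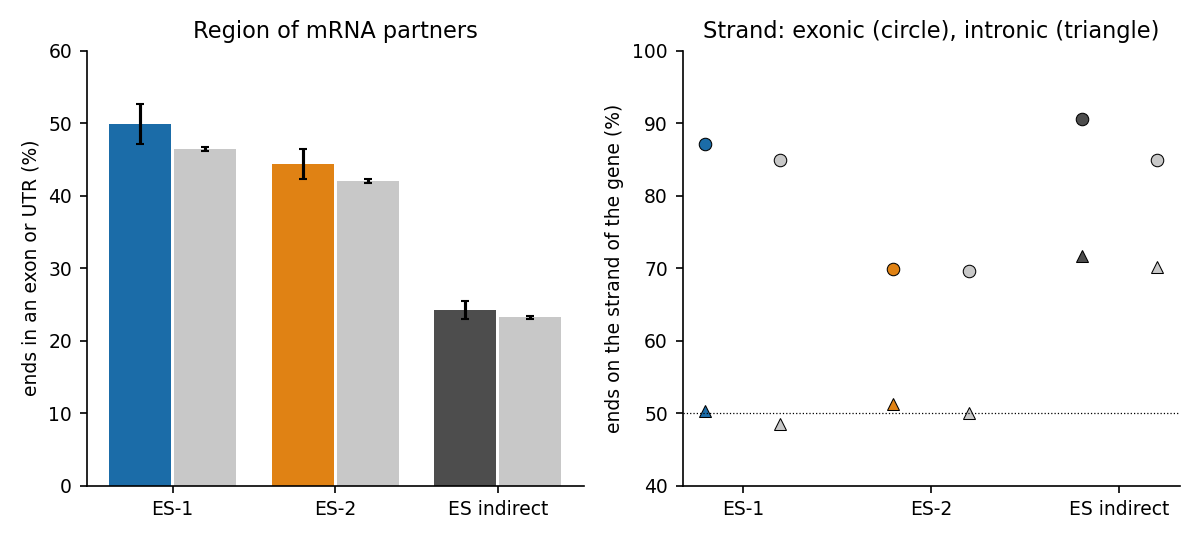
Left, share of the mRNA partners of lincRNAs that lie in an exon or UTR (coloured bars, 95% Wilson intervals) beside that of all protein-coding ends in read pairs between RNAs (grey), in percent. Right, share of exonic (circles) and intronic (triangles) ends on the strand of their gene, the dotted line marking 50%. The exonic share falls from 49.9% in ES-1 to 24.2% in ES indirect, and the intronic ends leave the dotted line only in ES indirect.

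Read pairs with both ends in the same lincRNA can come from the fold of 1 RNA molecule, from 2 molecules of it or from 1 uncut stretch of RNA. For its structural analysis the paper applied filters meant to limit intact fragments, which were not applied here. Which origin held was not tested. These read pairs numbered 576 in ES-1 (3.75%, 3.46 to 4.06), 207 in ES-2 (1.15%, 1.01 to 1.32) and 6498 in ES indirect (29.8%, 29.2 to 30.4), over 320, 158 and 1013 lincRNAs. The mean of ES-1 and ES-2, 2.45%, was 8.07% with the fragment filter, 6.26% without ribosomal partners and 4.32% without runs, and ES indirect came to 48.5% over every line. For intronic ends of protein-coding genes the share was 5.13%, 2.07% and 42.1%, and for exonic ends 4.82%, 1.48% and 32.8%, so lincRNAs were below both in each library over distinct read pairs without these filters, which were not applied to protein-coding genes. The ends of these read pairs were long, with a median of 90 bases, and at most 0.693% held a run. On the strand of the gene lay 57.8% in ES-1, 50.7% in ES-2 and 65.7% in ES indirect.

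The ends within a lincRNA were close together and in order. Both lay on the same strand within 2000 bp of each other in 571 of 576 read pairs in ES-1, 206 of 207 in ES-2 and 6196 of 6498 in ES indirect, with a median gap of 50, 64 and 33 bp. RNA1 lay upstream of RNA2 in 86.9%, 94.7% and 87.8%. In protein-coding genes the values were 91.8%, 91.2% and 85.0%. The lincRNA shares of ES-1 and ES-2 were lowered by 5430416N02Rik, with RNA1 downstream in 47 of 48 and 8 of 8 read pairs. Among read pairs with both ends on the same strand, gaps beyond 2000 bp were found 1 time each in ES-1 and ES-2 and 286 times in ES indirect. These 286 were 4.40% of all its read pairs within a lincRNA, against 5.30% in protein-coding genes. In these 286 the order was near even, with RNA1 upstream in 53.8%, against 89.3% of the closer ones.

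**Figure D5:**
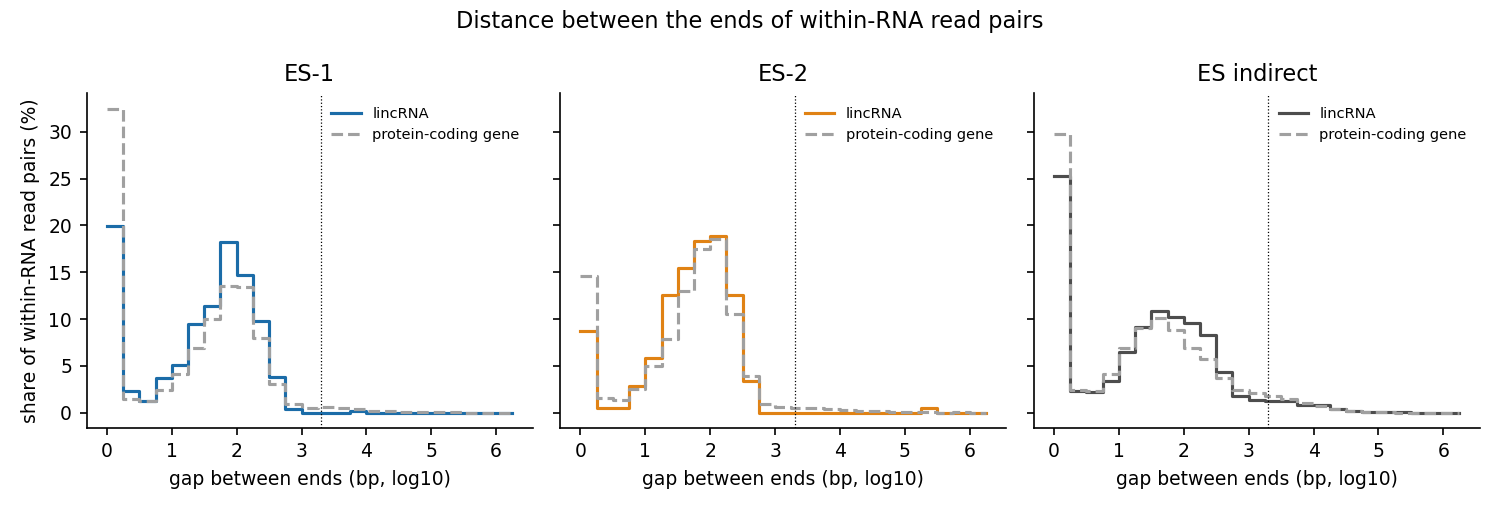
Gap between the ends of read pairs within 1 RNA and on the same strand (x axis, log10 of bp, gaps of 1 bp or less and overlaps in the first step) against the share of such read pairs (y axis, percent), for lincRNAs (solid) and protein-coding genes (dashed) in each library. The dotted line marks 2000 bp. The medians are 50 bp in ES-1, 64 bp in ES-2 and 33 bp in ES indirect, and a tail beyond 2000 bp (4.40%) is seen for lincRNAs in ES indirect.

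Pvt1, the lincRNA next to Myc, led ES indirect with 1332 distinct read pairs, against 75 in ES-1 and 56 in ES-2. Both ends lay in Pvt1 in 764 of the 1332 (57.4%), 10 of 75 and 3 of 56. In ES indirect its ends were spread over 226 windows of 1 kb of a gene of 340 kb, the busiest 100 bp held 0.382%, and 97.7% lay on the strand of the gene. Exons of Pvt1 held 0.382% of the ends, so these ends came from its introns. The median gap between ends within Pvt1 was 17 bp, and RNA1 lay upstream in 640 of the 764 read pairs. The largest gap was 63676 bp, and 55 gaps were beyond 2000 bp. Its other partners there were ribosomal RNA (244), 155 protein-coding genes (164 read pairs, 132 of them intronic) and unannotated sequence (76), and no protein-coding gene had more than 5 read pairs. In ES-1 and ES-2 the sense share was 67.1% and 50.8%.

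Among other lincRNAs with spread and stranded ends in ES indirect, which also include Gm17317 above, were Gm2694, Gm11019 and 6720401G13Rik. Gm2694 had 231 read pairs there, 131 of them within the RNA (56.7%) and 98.9% of ends sense, against 10 in ES-1 and 1 in ES-2. 6720401G13Rik, the gene known as Firre, whose RNA stays in the nucleus, had 57 read pairs in ES-1, 12 in ES-2 and 162 in ES indirect, with 91.7%, 83.3% and 95.2% of ends sense. In ES indirect 90 of its 162 were within the RNA. Gm11019 had 132, 40 and 435, and 52.7%, 54.8% and 23.8% of its ends lay in its exons on the sense strand. Gm16953 (122, 40 and 293) and Gm16736 (126, 118 and 207) also had many read pairs within the RNA in ES indirect, 137 and 94, but 65.1% and 13.3% of their ends there were sense.

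Of 24 lincRNAs with known roles that were looked up, 9 were members, 8 each in ES-1 and ES-2 and 9 in ES indirect. Tug1 had 28 read pairs in ES-1, 13 in ES-2 and 39 in ES indirect, with 46.4%, 46.2% and 51.0% of ends in its exons. Dleu2, host of microRNAs lost in leukaemia, had 16, 14 and 48. H19, the imprinted RNA expressed from the maternal copy, had 9, 4 and 3. 1700020I14Rik had 17, 0 and 39, and 100% of its ES-1 ends and 94.0% of its ES indirect ends were exonic and sense. The 0 of 1241787 read pairs in ES-2 allows a share of up to 0.000242%, and the 17 in ES-1 are of 2310134. Rmst had 4, 3 and 12, Miat 1, 5 and 5, and Mir17hg 0, 2 and 11. Besides Pvt1 and 6720401G13Rik, these known lincRNAs thus had at most 48 read pairs in a library. Xist, Tsix and Kcnq1ot1 were among those looked up that were not members. Membership needs the deposited type lincRNA, and these names were not looked for under other types. Their absence from the libraries was therefore not shown.

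Exons of the named lincRNA on its strand held 1252 ends in ES-1 (7.84%), 2344 in ES-2 (12.9%) and 2402 in ES indirect (8.43%). Those of at least 20 bases that matched the genome and held no run numbered 396 in ES-1, 168 in ES-2 and 1562 in ES indirect, over 139, 95 and 398 lincRNAs, 42 of them in both ES-1 and ES-2. Their partner was ribosomal RNA in 42.2%, 42.9% and 12.6%, and the same lincRNA in 23.99%, 17.9% and 59.4%, as shares of ends, where a read pair within a lincRNA counts with both. The other lincRNA ends that passed the same filter (5106, 2528 and 20371) had a ribosomal partner in 47.8%, 47.5% and 10.5% and the same lincRNA in 20.5%, 15.1% and 58.7%, so the exonic ends were near them. A protein-coding gene was met 36, 17 and 202 times. Gm11019 had 79, 19 and 158 such ends, more than any other lincRNA in ES indirect, and Tug1 had 11, 4 and 25.

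Pairs of RNAs joined more often than their own totals predict were called by a one-sided Fisher's exact test over all pairs of RNAs, with at least 3 distinct read pairs and a Benjamini-Hochberg threshold of 0.05. The test treats read pairs as its unit and describes these libraries. The 2 UV libraries taken as 1 (ES merged) held 8001 pairs with a lincRNA, of which 321 had 3 or more read pairs and 53 were called. That is 0.662% of the lincRNA pairs, where 0.895% of all pairs were called. Counted over the pairs with 3 or more read pairs, which a call needs, the order was the other way, with 53 of 321 lincRNA pairs called and 2039 of 18384 of all pairs. In ES-1 alone 27 were called (0.712%, all pairs 1.09%) and in ES-2 alone 28 (0.618%, all pairs 0.719%). In ES indirect 201 of 6060 were called (3.32%, all pairs 2.54%). Adjusted over all possible pairs instead of the observed ones, 12 were called in ES merged and 111 in ES indirect. With the fragment filter 17 were called in ES merged, and over every line 341. The share of all pairs called was not counted for these settings or for the others given further below. Whether lincRNA calls changed more than calls at large is therefore not known.

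Repeat calls across assays were few. Of the 53 pairs, 26 had read pairs from each UV library, 2 were called in each of them by itself, and 5 had a read pair in ES indirect. The same overlap was not counted for called pairs of all types, so these numbers show nothing particular to lincRNAs. The 2 pairs called in each UV library joined 9330185C12Rik with Snora3 and A430010J10Rik with SNORA74. The partner was a snoRNA in 32 of the 53, a protein-coding gene in 6 and a small nuclear RNA in 5. The lincRNA ends of 40 of the 53 pairs came from 1 window of 100 bp.

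9330185C12Rik and Snora3 were joined 27 times in ES-1 and 9 times in ES-2, by 36 read pairs in all where 16.4 were expected (adjusted p 0.00259, Fisher's exact test), and the call was lost when adjusted over all possible pairs (adjusted p 1). The fragment with the ribosomal stretch printed above comes from 1 of these read pairs. A430010J10Rik and SNORA74 had 6 and 10 (1.78 expected, adjusted p 4.28e-08). Of all A430010J10Rik ends, 94.7% in ES-1 and 99% in ES-2 held a run, and 5.68% and 1.14% were sense. Both pairs called in each UV library thus involve a lincRNA whose ends nearly all held runs. Gm12374 and SNORA63 had 19 and 2 (0.778 expected, adjusted p 3.4e-22), and in all 21 a fragment resembled the partner gene, as the capitals above show. Gm13847 and SNORA42 had 16, all in ES-2 (1.19 expected, adjusted p 1.15e-10). Tdrd5 and Snora81 had 33, all in ES-1 and all with such a resemblance.

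The pairs were then divided by these 2 features. In ES merged, at least 50% of the read pairs resembled the partner in 9 pairs and held a run in 21, and 23 of the 53 had neither. Among these 23 were Gm17494 with tRNA-Glu-GAG (1 and 11 read pairs, adjusted p 0.000623 by Fisher's exact test), Gm16742 with SNORA3 (6 and 2), A330033J07Rik with U1 (2 and 6) and Tug1 with SNORD74 (1 and 2). Adjusted over all possible pairs, none of these 4 was called (adjusted p 0.533 to 1 by Fisher's exact test), and 4 of the 23 still were. They were Gm12374 with a second SNORA63 gene (2 and 7 read pairs), and 3 pairs seen in 1 library each, Gm15270 with the repeat MMETn-int (7 in ES-1), Gm13589 with Slc5a11 (6 in ES-2) and 4921508D12Rik with SNORA70 (5 in ES-1). The lincRNA ends of each of these 4 pairs lay in 1 window of 100 bp. Those of Gm12374 had 1 position, in the gene whose fragment printed above shares 15 of 16 bases with another SNORA63 gene. Those of Gm15270 also had 1 position, and in the pair of Gm13589 the Slc5a11 ends had 1. 6720401G13Rik with SNORD74 had 3 read pairs, all in ES-1, from 3 places of the lincRNA. The pairs named here beyond 9330185C12Rik and the 6 printed were chosen after their values were seen.

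In ES indirect, resemblance was the common feature of the called pairs: it held for at least 50% of the read pairs in 178 of 201, runs did so in 7, and 16 had neither. The pair with most read pairs was 6030443J06Rik with Pkm2, the muscle-type pyruvate kinase, with 92 there, 20 in ES-1 and 0 in ES-2. All 20 in ES-1 resembled. The name 6030443J06Rik is not in GENCODE vM1. In the fragment below, from the read pair with most lines in ES indirect, 90 of 90 bases of the lincRNA end were covered by runs shared with Pkm2.
6030443J06Rik, chr5:22231558-22231647, minus strand: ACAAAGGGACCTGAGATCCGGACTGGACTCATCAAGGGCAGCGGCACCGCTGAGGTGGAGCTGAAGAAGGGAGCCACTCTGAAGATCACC
its partner Pkm2, chr9:59516768-59516867, plus strand: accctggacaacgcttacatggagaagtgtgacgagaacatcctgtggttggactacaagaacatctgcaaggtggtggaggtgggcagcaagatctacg

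Without read pairs that resemble the partner, 26 pairs were called in ES indirect and 45 in ES merged. Those of the 16 with most read pairs joined lincRNAs of 1 stretch of chromosome 4, Gm16889 with Gm17317 (14 read pairs, 0.294 expected) and Gm16889 with Gm17452 (10, 0.122 expected). The ends lay a median of 332240 bp apart in the first pair (285701 to 339577) and 268919 bp in the second (267748 to 610709). Resemblance was not looked for where the gene stretches of both ends overlap on a chromosome, and such read pairs count as without it. These pairs may hold such read pairs, as Gm17317 spans 320742 bp. Of the read pairs of Gm16889 with 2610305D13Rik, 16 of 16 resembled. 6720401G13Rik was joined 4 times to Rpl13a, a protein of the large ribosomal subunit (0.00815 expected, adjusted p 1.83e-08 by Fisher's exact test), from 4 places of the lincRNA but with 1 position in Rpl13a, and 5 times to U6 from 1 position of the lincRNA (0.243 expected, adjusted p 0.000248 by Fisher's exact test). Over all possible pairs the Rpl13a pair was still called (adjusted p 2.34e-05) and the U6 pair was not (0.316, Fisher's exact test).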

How the data were processed

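The deposited files hold no measured value: per the study's methods the authors removed duplicates by barcode and mapped place, split each molecule at the linker, mapped RNA1 and RNA2 uniquely and annotated both, and each line is 1 read pair with position, strand, sequence, RNA type, name and region. The submitters' processing notes name TopHat2 2.1.1 and the builds mm9 and NCBIM37. Libraries were deposited separately. The brain and MEF libraries were not used here.

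Lines with equal coordinates and strands were collapsed (3230403, 1312314 and 3302146 lines). The members and gene lists were chosen with earlier results of these data known. Strand and exons were taken from GENCODE vM1 on NCBIM37, with RNA2 on the opposite of its stated strand. Of the 1694 names, 1069 were lincRNA, 607 processed_transcript, 2 protein_coding, 1 pseudogene and 1 miRNA in vM1, and 14 were not found. Membership rests on the deposited type alone, and coding capacity was not tested. Ribosomal runs were 15-base words seen in at least 10 of 793221 ribosomal fragments, and linker runs 10-base words of the linker recovered from the reads. A read pair resembled its partner when a fragment aligned with at most 10% edits to the partner's gene or, for repeats and names not in vM1, to 5000 bp around the other end. Where these stretches overlapped on 1 chromosome this was not looked for, and the read pair counted as not resembling. Read pairs between RNAs had no ribosomal or unannotated end, 2 names and ends over 2000 bp apart. One-sided Fisher's exact tests ran on all observed pairs of RNAs and were adjusted by Benjamini-Hochberg over them, which does not cover pairs never seen. The script was tested on simulated data. For calls over observed pairs, that check allowed a larger share of false calls than the share called in ES-2 (0.719%). It therefore lends these calls no support. Intervals are 95% Wilson intervals, and limits for a count of 0 use 3 counts. Both cover counting error only. Named lincRNAs were the 15 with most read pairs in ES-1 and ES-2 together, the 5 leading in ES indirect, those of called pairs seen in both ES libraries, 24 with known roles and the 5 with most read pairs within the RNA in a library. Python 3.11.15, pandas 2.3.3, NumPy 2.4.6, SciPy 1.17.1, Numba 0.67.0 and pysam 0.24.0 were used.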

Additional observations from a re-analysis of the deposited data

How the results depend on the processing

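Of the 59 alternatives that moved a result of the comparisons, most were those of ES indirect, whose counting intervals are narrow. Names shared by ES-1 and ES-2 (874) came to 300 with the fragment filter (both fragments of 20 bases or more and matching the genome), 460 with GENCODE vM1 names, 428 with at least 3 read pairs and 551 with the pairing of ES-1 flow cell 1 with ES-2 flow cell 2. The lincRNA share of ES (mean 1.05%) was 0.459% with the fragment filter, 0.509% with vM1 names, 0.550% without runs and 2.16% without ribosomal read pairs, and 0.665% to 1.44% leaving out 1 library, below and above ES indirect. In ES indirect (1.32%) it was 1.11% over every line, 1.56% with coordinates collapsed within 5 bases, 1.13% with the fragment filter, 0.699% with vM1 names, 1.60% with the left-out names, 2.24% without ribosomal read pairs, 1.03% without runs, and 1.39% and 1.24% in its flow cells. Ribosomal partners (ES mean 61.7%, 59.9% to 63.5% leaving out 1 library) were 59.1% without runs. In ES indirect (26.5%) they were 17.1% over every line, 18.5% with the filter, 24.7% with vM1 names, 24.6% with the left-out names, 31.0% without resembling read pairs, 38.5% of read pairs between RNAs, 18.1% without runs, and 20.6% and 27.3% in its flow cells. Read pairs within the RNA (ES mean 2.45%, 1.15% to 3.75% leaving out 1 library) were 8.07% with the filter, 6.26% without ribosomal partners and 4.32% without runs. In ES indirect (29.8%) they were 48.5% over every line, 43.8% with the filter, 36.4% with vM1 names, 31.9% with the left-out names, 40.5% without ribosomal partners, 37.7% without runs and 40.1% in flow cell 1. The exonic share of mRNA partners (ES mean 47.1%, 44.4% to 49.9% leaving out 1 library) was 51.2% over every line, 58.7% with the filter, 56.4% with vM1 names, 57.7% for sense partners and 43.1% without runs, so that exons held the majority in the first 4. In ES indirect (24.2%) it was 29.8% over every line, 26.5% with the filter, 30.9% with the left-out names, 28.7% for sense partners and 26.8% in flow cell 2. Called pairs in ES merged (53) numbered 341 over every line, 17 with the filter, 33 without runs, 158 and 28 with at least 2 and 5 read pairs, 26 at a threshold of 0.01, 12 adjusted over all possible pairs, and 27 to 28 leaving out 1 library. In ES indirect (201) they numbered 446 over every line, 26 without resembling read pairs, 365 and 107 with at least 2 and 5 read pairs, and 111 adjusted over all possible pairs. Calls among pairs of all types were not counted under these settings. The tests without runs and over all possible pairs were added after seeing the data, and the cause of these shifts was not tested.

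The rarer members rest on few read pairs, since 354 to 365 of the names in ES-1 and ES-2 and 348 in ES indirect were seen once. Whether this follows depth was not tested. Without ribosomal partners the ribosomal share has no value. No paired analysis was possible because ES and ES indirect share fewer than 2 replicate numbers, ES indirect being 1 library.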
